A study of Drosophila melanogaster with 20 samples.

Results

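The 8 genes described here encode the core parts and the sex switch of dosage compensation in Drosophila melanogaster. They are the noncoding RNAs roX1 and roX2, the MSL protein genes msl-1, msl-2, msl-3, mle and mof, and Sex-lethal (Sxl), chosen by name out of 17602 genes with values. All 8 passed the filter on low values, as did 10176 genes in all. RNA from wings and salivary glands, every sample labelled female and raised at 25 °C, was sequenced in 20 libraries, with 2 libraries for each of 10 groups. Wild-type (WT) tissue, +/+ on each chromosome, was dissected at -30, -6 and +6 h, counted from puparium formation, when the larva becomes a prepupa. EcRi tissue was taken at -30 and -6 h and was yw/yw. It carried UAS-EcR-RNAi[104], a hairpin RNA against the ecdysone receptor gene EcR, together with the marker UAS-GFP, the drivers Vg-GAL4 and Tub>>CD2>>GAL4, and UAS-Flp, so that cells in which vestigial-GAL4 was active switch on the tubulin driver. WT tissue carried none of these, so a difference between EcRi and WT cannot be told apart from one between the lines. Each library pooled at least 60 wings or glands, and separate animals for the 2 libraries of a group are not stated, so p-values measure only the spread between libraries, which may be technical.

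In male flies the MSL complex coats the X chromosome and raises its transcription to match the output of the female pair of X chromosomes. MSL2 is the subunit that limits assembly to males, MSL1 is its scaffold partner, MSL3 reads a histone mark on active genes, MLE is an RNA helicase that loads roX RNA, and MOF acetylates histone H4. In females the RNA-binding protein Sxl blocks translation of msl-2 mRNA, the complex does not form and roX RNAs do not accumulate, so roX RNA serves as a marker of male cells. MOF also works outside this complex, in the NSL complex of both sexes.

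The libraries held 14832282 to 22577143 reads in genes, and 6356 to 11477 genes with at least 1 read. The lowest gene number was that of WT gland -30 h replicate 2. In WT gland at -6 h glue protein genes made up 68.7% and 74.8% of all reads, against at most 2.32% in any other library. Levels are therefore given as scaled RPM, reads relative to library size and corrected for such composition by TMM factors. In these -6 h glands the scaling decides the direction of several results, each named below. EcR, the target of the hairpin, had 1318 and 1267 scaled RPM in WT gland at -6 h and 247 and 191 in EcRi gland. Most of this gap came with the scaling: before it EcR had 332 and 250 RPM in WT and 224 and 212 RPM in EcRi gland. At -30 h the EcRi glands, with 301 and 280 scaled RPM, overlapped the WT glands, with 278 and 301. In wing EcR was lower in EcRi than in WT libraries without overlap at both times (215 and 186 against 348 and 314 scaled RPM at -30 h, 127 and 125 against 195 and 161 at -6 h). The summed fat body markers were 24.0 to 2588 scaled RPM in wing and 2457 to 22948 in gland libraries, highest in EcRi gland at -30 h (15709 and 22948), and their part in the gland results was not tested. Summed salivary gland markers in WT wing were 237 and 489 scaled RPM at -30 h, 11500 and 8513 at -6 h, and 1715 and 2106 at +6 h. Glue genes made up 2.32% and 1.6% of reads in the WT wing -6 h libraries. The part of gland RNA in the wing results was not tested. In pooled tissue, fewer cells of a type and less RNA per cell cannot be told apart.

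roX1 (FBgn0019661, X:3857230-3862697, minus strand, dm6) was present in several libraries labelled female, and its level differed widely between libraries of the same group. It is a noncoding RNA of 5468 bases. In WT wing at -30 h it had 729 and 669 reads, or 22.2 and 22.3 scaled RPM. In WT wing at -6 h it had 25 and 1142 reads, or 0.804 and 34.1 scaled RPM. In WT wing at +6 h the order was turned, with 1069 and 46 reads, or 38.7 and 1.80 scaled RPM. These WT wing values therefore fell into 4 libraries of at least 22.2 and the other two below 2 scaled RPM.

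WT gland libraries were also uneven, with the widest gap in scaled RPM at -6 h. There roX1 had 14 and 121 reads, or 3.07 and 27.8 scaled RPM. At -30 h it had 12 and 0 reads, where a count of 0 allows up to 0.176 RPM before scaling, and at +6 h 28 and 6 reads. In scaled RPM no EcRi library came near the higher WT values. For WT gland -6 h replicate 2 this rests on the scaling. Before it, that library had 5.50 RPM, below EcRi wing at -30 h with 10.3 and 15.4 RPM. EcRi wings had 5.32 and 8.07 scaled RPM at -30 h and 1.33 and 0.738 at -6 h. EcRi glands had 1.60 and 2.46 scaled RPM at -30 h and 0.905 and 0.842 at -6 h. Over all 20 libraries, 5 lay at or above 22.2 scaled RPM, 4 of them WT wing and 1 WT gland, and 15 at or below 8.07.

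roX2 (FBgn0019660, X:11579065-11580432, plus strand), the shorter partner RNA of 1368 bases that acts redundantly with roX1, was close to absent in most wings. It had 1 and 13 reads in WT wing at -30 h, 1 and 98 at -6 h, and 168 and 4 at +6 h. In EcRi wing it had 1 and 3 reads at -30 h and 1 and 0 at -6 h. The wing libraries with the most roX2 reads at -6 and +6 h were thus those with the most roX1 reads.

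In the gland roX2 followed another course. WT glands had 1 and 0 reads at -30 h, 5 and 26 reads at -6 h, and 221 and 191 reads at +6 h. On the scaled RPM scale these were 0.0474 and 0, then 1.10 and 5.98, then 25.4 and 25.7. The +6 h glands stood above every other library and lay close together, while roX1 in the same libraries was only 3.22 and 0.808 scaled RPM. EcRi glands had between 7 and 15 roX2 reads in each of their 4 libraries.

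**Figure D1:**
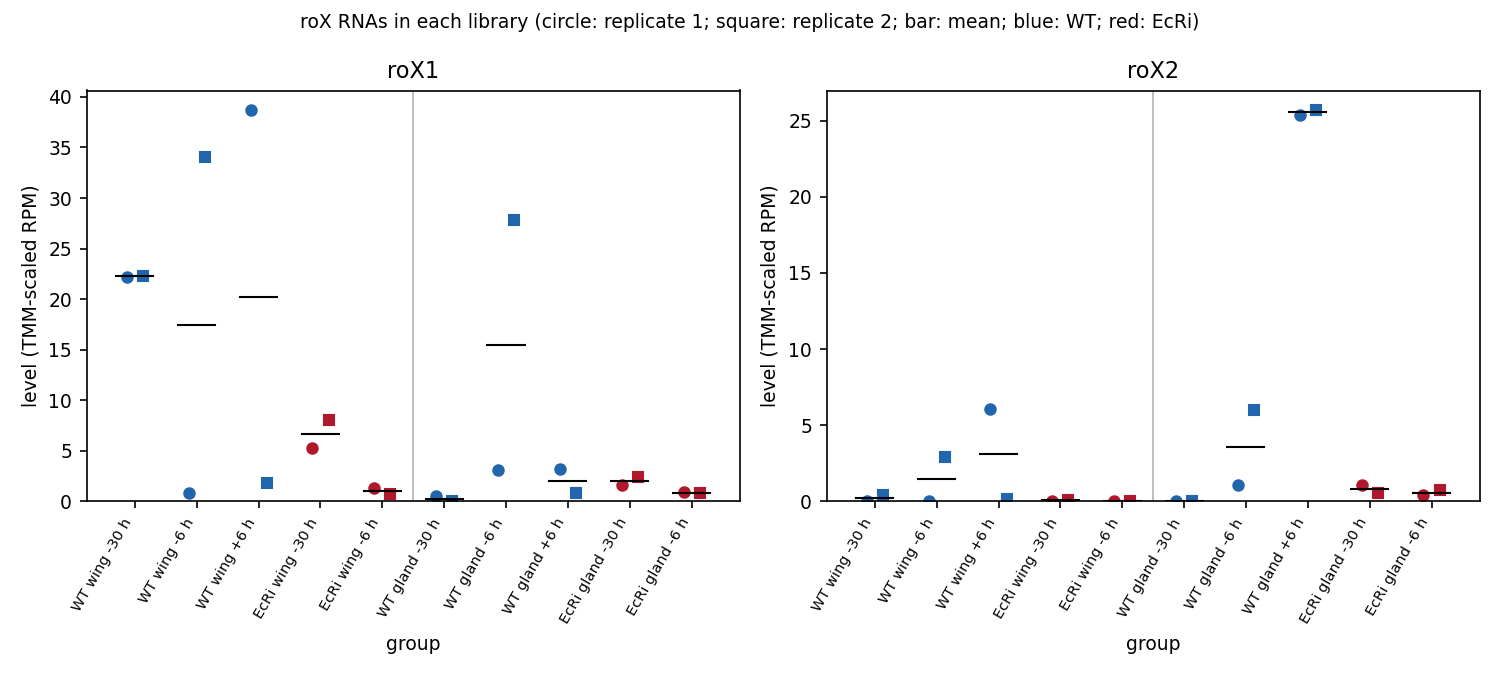
Level of roX1 (left) and roX2 (right) in each of the 20 libraries, in TMM-scaled RPM, with a bar at the mean of each group. roX1 reached 34.1 in replicate 2 but 0.804 in replicate 1 of WT wing at -6 h, and roX2 was highest in WT gland at +6 h, at 25.4 and 25.7.

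In WT wing at -6 and +6 h and in WT gland at -6 h, few genes differed between replicates as much as roX1. This did not hold in the other groups. There, 182 (WT gland at +6 h) to 9681 (WT wing at -30 h) of the genes tested had a gap at least that of roX1, itself included. On the log2(scaled RPM + 1) scale, roX1 differed between replicates by 4.28 in WT wing at -6 h, by 3.82 at +6 h and by 2.82 in WT gland at -6 h. Ranked among the 10176 genes tested, these gaps were number 1, number 3 and number 8 of their groups, where the median gap of all genes was 0.144, 0.145 and 0.286. The 6 protein genes differed between the same replicates by 0.02 to 0.26, 0.02 to 0.42 and 0.10 to 0.44. Across the 10 groups, the replicate differences of roX1 and roX2 correlated at r = 0.932, as a description over points that share libraries and their depth. Among genes with a mean of at least 5 scaled RPM, a limit that roX2 does not reach, the most like roX1 by this measure were Sar1 (r = 0.821), a GTPase gene of the secretory pathway, the kinase gene Mkk4 (0.813) and ich (0.786). Among the same genes, Mkk4 (0.825) and Pde11 (0.791), a cyclic nucleotide phosphodiesterase gene, came after roX1 in likeness to roX2.

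Small structural RNAs shared the top ranks. The U3 small nucleolar RNA gene snoRNA:U3:54Aa had 408 scaled RPM in replicate 1 and 17.9 in replicate 2 of WT wing at +6 h, and 931 and 41.4 in WT gland at -6 h. RNaseMRP:RNA, the RNA of an RNA-processing enzyme, had 2861 and 520 scaled RPM in the replicates of WT wing at -6 h and 2954 and 740 at +6 h. In WT wing at -6 h the U3 RNA had 141 and 17.6 scaled RPM, so it was higher in replicate 1 of each of these groups. That was the replicate with less roX1 at -6 h in both tissues and with more roX1 in WT wing at +6 h. snoRNA:Tudor-SN-a was instead higher in replicate 2. It had 4.37 and 28.4 scaled RPM in WT wing at -6 h, 8.33 and 37.3 at +6 h, and 14.5 and 131 in WT gland at -6 h. The part of these RNAs in the roX gaps was not tested.

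**Figure D2:**
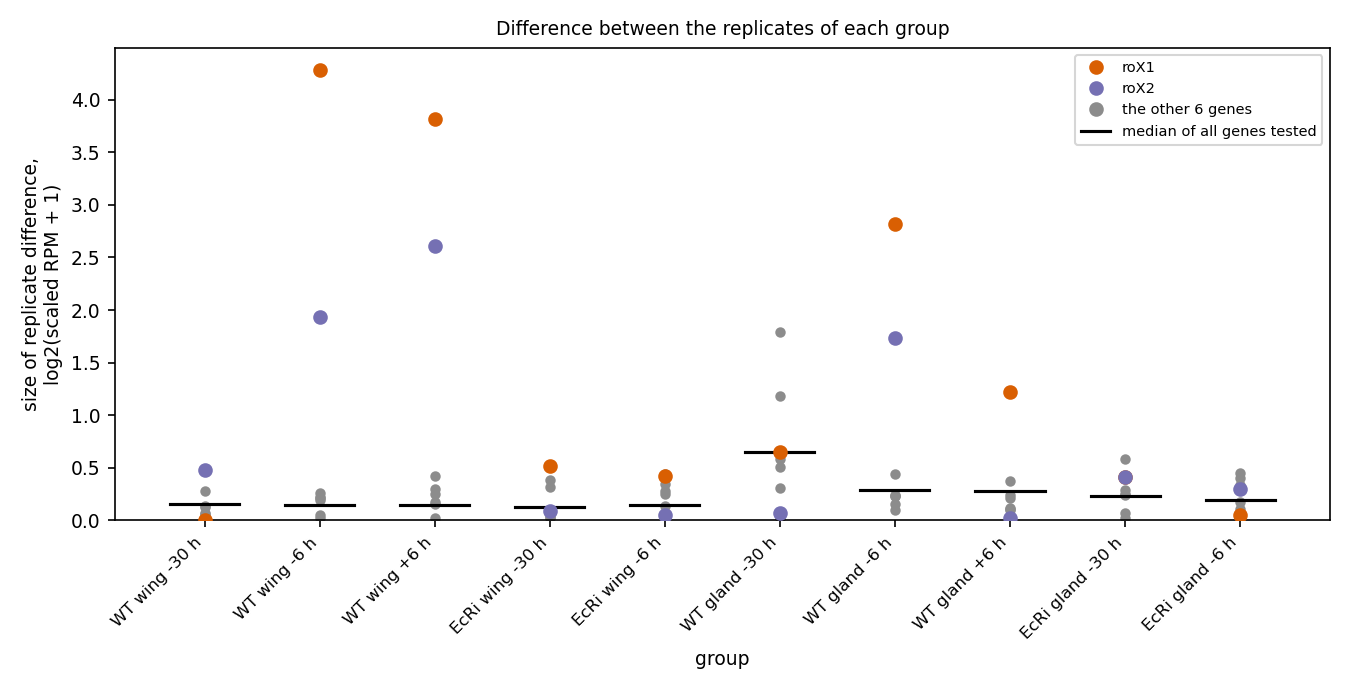
Size of the difference between the 2 replicates of each group, as log2(scaled RPM + 1), for roX1, roX2 and the other 6 genes, with a black bar at the median of all genes tested. roX1 stands at 4.28, 3.82 and 2.82 in WT wing at -6 and +6 h and WT gland at -6 h, while the other 6 genes stay at or below 0.44 in those groups.

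X-linked and Y-linked genes were measured beside roX1, but neither tells male from female tissue here: dosage compensation evens out X output between the sexes, and most of the Y genes listed are known from the testis. The X:autosome balance was taken as the median replicate difference of 1676 X-linked genes minus that of 8322 autosomal genes. It was 0.012 in WT wing at -6 h, -0.006 in WT wing at +6 h and -0.013 in WT gland at -6 h. Of 12 Y-linked genes listed, 11 were in the matrix. Setting aside FDY, the other 10 held 1 read in total over all libraries, and 9 had none. FDY had 1.15 to 21.4 scaled RPM (0.227 to 37.0 RPM before scaling). But it is a copy of the autosomal gene vig2, which had 30.5 to 614 scaled RPM, and reads of either may be counted for the other. Over all 113 annotated Y genes, 5 had more than 3 reads in any library. Genes of germline and testis summed to at most 3.32 scaled RPM in any library, and all 9 were at 0 in both WT gland -6 h libraries. Whether any pool held male tissue was not tested.

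The gene ec overlaps roX1 by 392 bases on the opposite strand, and whether the counting used strand is not given in the sources used here. It had 523 and 493 scaled RPM in WT wing at -6 h and 806 and 780 at +6 h, so it did not show the gap of roX1. Over the 20 libraries roX1 had no close partner among the 6678 genes with a mean of at least 5 scaled RPM. The most like were rpr, a cell death gene (r = 0.659), CG7747 (0.646) and Cht7, a chitinase gene (0.621). For roX2 they were CG13321 (0.895), Hs3st-A (0.894) and Tep2 (0.893), the last an immune gene of the thioester family.

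Between genotypes roX1 was not called in any tissue at any time. limma was fitted over all 20 libraries, and a call required both an adjusted p under 0.05 (Benjamini-Hochberg, over all genes tested) and at least a 2-fold difference. The log2 difference of EcRi from WT was -1.62 ± 1.29 (SE) in wing at -30 h (limma adjusted p = 0.942) and -1.98 ± 1.29 in wing at -6 h (1.0). In gland it was 1.26 ± 1.29 at -30 h (adjusted p = 0.505) and -2.53 ± 1.29 at -6 h (0.145). The latter was -4.03 without WT gland -6 h replicate 1 and -1.23 without replicate 2. Over the 4 matched tissue times the mean was -1.22 ± 0.64 (adjusted p = 0.186), and that of roX2 was -0.41 ± 0.37 (0.444). In wing at -30 h all 4 libraries kept to their side, 5.32 and 8.07 against 22.2 and 22.3 scaled RPM, and the SE is shared by all groups. The authors' deposited table gives roX1 in WT wing -30 h over EcRi wing -30 h a log2 fold change of 0.10 ± 0.48 (adjusted p = 0.858). That is far nearer to no change than the group means before scaling, 43.6 RPM in WT and 12.8 RPM in EcRi wing. Deposited and limma values are thus on different scales, and their sizes are not compared like for like. In the authors' deposited table WT gland -6 h over EcRi gland -6 h stands at 2.31 ± 1.46 with an adjusted p of 0.0118, under the threshold, where limma made no call. The same table has 0.85 ± 1.56 (adjusted p = 0.132) for wing at -6 h and -0.69 ± 0.98 (0.172) for gland at -30 h. With only the compared libraries in the fit, the limma difference of EcRi from WT in wing at -30 h was -1.66 (adjusted p = 0.000476). In wing at -6 h the value rested on WT replicate 2: without it the difference was 0.16.

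Across WT tissues and times the roX RNAs were called 4 times. roX1 was higher in WT wing than in WT gland at -30 h by 4.21 ± 1.29 (SE) on the log2 scale (limma adjusted p = 0.0174). Without WT gland -30 h replicate 2, which had no roX1 read, it was 3.88 (adjusted p = 0.115), and without WT wing -30 h replicate 1 or 2 it was 4.18 (0.0695) or 4.17 (0.07). roX2 rose in WT gland from -6 to +6 h by 2.80 ± 0.74 (adjusted p = 0.00712) and from -30 to +6 h by 4.70 ± 0.74 (8.1e-05). The first of these was 2.20 (adjusted p = 0.0663) without WT gland -6 h replicate 1. The second compares 412 reads with 1 read, a ratio of 1025 on the scaled RPM scale, with an exact 95% interval of 183 to 40596 that covers counting error only. At +6 h roX2 was lower in WT wing than in WT gland by 3.21 on the log2 scale (log2 difference -3.21 ± 0.74, adjusted p = 0.00178), and without scaling this was -1.80 (0.0521). The authors' deposited table gives roX2 in WT gland -30 h over +6 h a log2 fold change of -8.53 ± 2.37 (adjusted p = 3.2e-06). For the other two roX2 calls the authors' deposited table does not pass the threshold, with -1.28 ± 1.26 for WT gland -6 h over +6 h (adjusted p = 0.125) and -2.17 ± 1.38 for WT wing over WT gland at +6 h (0.0572). It also lists roX1 in WT gland -30 h over -6 h at -4.26 ± 1.62 (adjusted p = 0.000341), where limma gave 3.11 ± 1.29 for -6 h against -30 h (0.0647).

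Sxl (FBgn0264270, X:7074550-7098053, minus strand) was the most abundant of the 8 genes. In scaled RPM it rose in WT gland at each step from -30 to +6 h. WT glands had 239 and 296 scaled RPM at -30 h, 619 and 725 at -6 h, and 2555 and 2959 at +6 h, with no overlap between times. The rise was 1.33 ± 0.13 (SE) from -30 to -6 h (limma adjusted p = 1.72e-06), but without scaling beyond library size it turned to -1.03. From -6 to +6 h it was 2.04 ± 0.13 (adjusted p = 2.53e-08) and over both steps 3.37 ± 0.13 (1.06e-10), upward under each of the 4 scalings tried. The 2 WT gland +6 h libraries were above all other libraries of the series. Values here are per gene, so male and female splice forms of Sxl were not told apart.

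WT wings showed a smaller course for Sxl. They had 289 and 303 scaled RPM at -30 h, 416 and 432 at -6 h, and 523 and 529 at +6 h. No step was called, since each was short of 2-fold: 0.52 ± 0.13 (limma adjusted p = 0.0273), 0.31 ± 0.13 (0.111) and 0.83 ± 0.13 over both (0.000184). At +6 h the wing was below the gland by 2.38 on the log2 scale (log2 difference -2.38 ± 0.13, adjusted p = 2.87e-09), and without scaling by less, at -0.74 (0.00226). The genes whose level followed Sxl most closely over the 20 libraries were the adenylyl cyclase gene Ac13E (r = 0.981), the kinase gene CaMKI (0.973) and CG45049 (0.964). The points share libraries, and both WT gland +6 h libraries are high in each gene.

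In EcRi gland the Sxl level at -6 h was lower than in WT. EcRi glands had 232 and 196 scaled RPM at -30 h and 275 and 288 at -6 h, against 619 and 725 in WT at -6 h. The difference was -1.25 ± 0.13 (SE, limma adjusted p = 4.52e-06), and without scaling it turned to 0.91. In wing the EcRi libraries lay just above WT at -30 h, with 313 and 320 against 289 and 303, and overlapped WT at -6 h, with 406 and 446 against 416 and 432. The log2 differences there were 0.10 ± 0.13 and 0.01 ± 0.13 (both adjusted p = 1.0). The difference in wing minus that in gland at -6 h was 1.25 ± 0.19 (adjusted p = 0.000218), and without scaling -0.95.

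A ratio of 2 genes within a library does not depend on scaling. For every 100 msl-1 reads, Sxl had 426 and 757 reads in WT gland at -30 h, 1358 and 1348 at -6 h, and 8081 and 8648 at +6 h. EcRi glands had 488 and 492 at -30 h and 611 and 591 at -6 h. On this scale the WT gland libraries lay apart by time, and WT and EcRi glands did not overlap at -6 h. The ratio shows unequal change of the 2 genes, and not which of them moved.

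**Figure D3:**
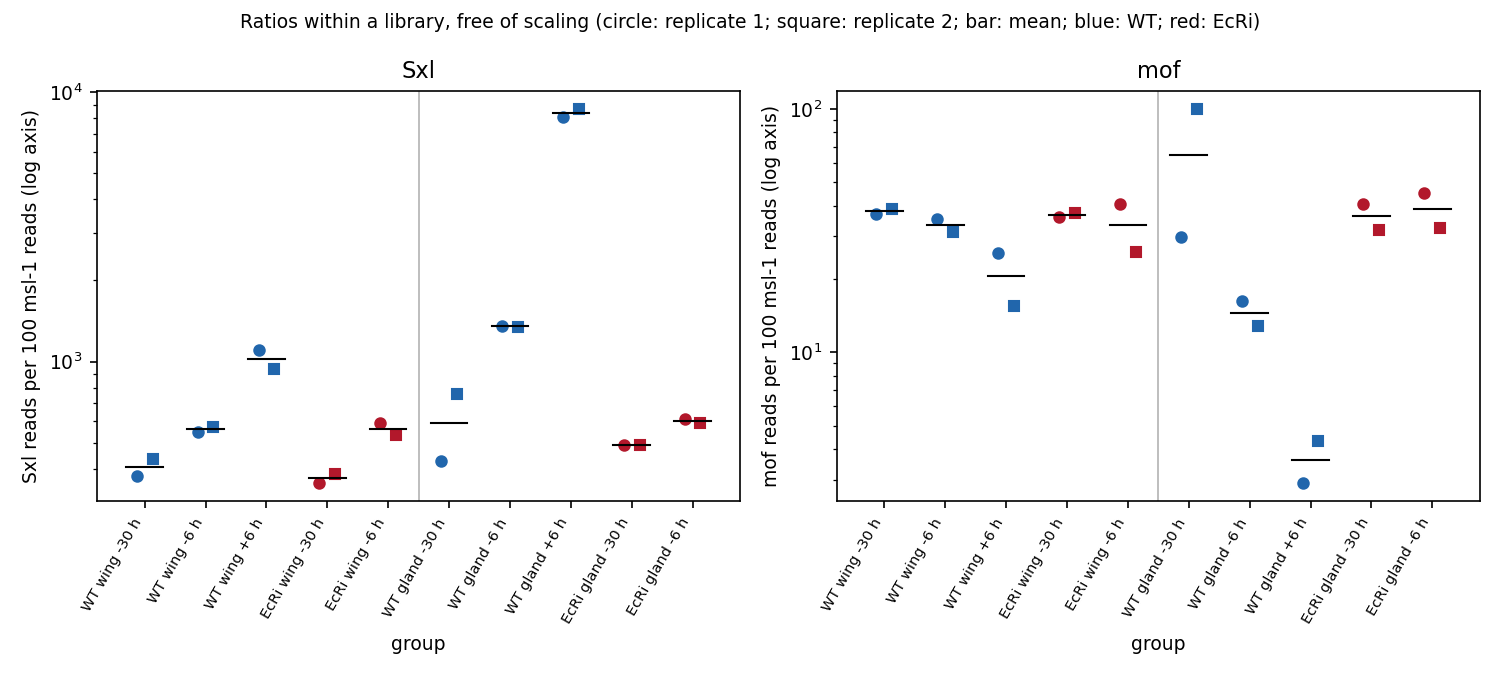
Reads of Sxl (left) and of mof (right) for every 100 msl-1 reads in each library, on log axes, with a bar at the mean of each group. In WT gland the Sxl ratio stands at 8081 and 8648 at +6 h, and the mof ratio at 2.91 and 4.33.

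mof (FBgn0014340, X:5873840-5876853, minus strand), the acetyltransferase gene, fell in both WT tissues. WT wings had 28.4 and 27.2 scaled RPM at -30 h, 26.9 and 23.5 at -6 h, and 12.1 and 8.74 at +6 h. WT glands had 16.6 and 39.0 at -30 h, 7.45 and 6.90 at -6 h, and 0.920 and 1.48 at +6 h, the last from 8 and 11 reads. In both tissues the +6 h libraries lay below all earlier ones.

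On the log2 scale the wing fell by 1.21 from -6 to +6 h (log2 difference -1.21 ± 0.33 SE, limma adjusted p = 0.0151) and by 1.35 from -30 to +6 h (-1.35 ± 0.33, 0.00539). The first did not hold when WT wing -6 h replicate 1 (-1.12, adjusted p = 0.105) or 2 (-1.31, 0.0502) or +6 h replicate 2 (-1.0, 0.137) was left out, nor the second without +6 h replicate 2 (-1.14, 0.061). In gland mof fell by 1.70 from -30 to -6 h (-1.70 ± 0.33, adjusted p = 0.000778), further from -6 to +6 h (-1.90 ± 0.33, 0.000339) and by 3.61 over both steps (-3.61 ± 0.33, 4.43e-07). The first of these was -1.58 (adjusted p = 0.0777) with only the compared libraries and -0.96 (0.0292) without 4 libraries that stood apart, named at the end, and the second was -0.82 (0.0895) without scaling. For every 100 msl-1 reads, mof had 29.7 and 99.7 reads in WT gland at -30 h, 16.3 and 12.8 at -6 h, and 2.91 and 4.33 at +6 h.

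mof was lower in WT gland than in WT wing at -6 and +6 h. The log2 difference of WT wing from WT gland was 0.12 ± 0.33 (SE) at -30 h (limma adjusted p = 0.83), 1.68 ± 0.33 at -6 h (0.000612) and 2.37 ± 0.33 at +6 h (2.69e-05). In EcRi gland mof had 19.4 and 12.6 scaled RPM at -30 h and 20.4 and 15.8 at -6 h. The latter was above the 7.45 and 6.90 of WT by 1.21 ± 0.33 (adjusted p = 0.0101). That call was lost without WT gland -6 h replicate 2 (1.07, 0.0668) or EcRi gland -6 h replicate 1 (1.04, 0.0824). Over the libraries mof and Sxl ran opposite to each other (r = -0.861), as did mof and roX2 (-0.862), which describes points that share libraries and rests in part on the WT gland +6 h pair.

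msl-2 (FBgn0005616, 2L:3462218-3466112, minus strand), whose mRNA is the target of Sxl, was present in all 20 libraries at 8.39 to 26.4 scaled RPM. WT wings had 20.9 and 23.2 at -30 h, 22.7 and 26.4 at -6 h and 15.6 and 17.7 at +6 h. WT glands had 14.7 and 14.9, then 16.7 and 23.0, then 8.39 and 10.1, so the +6 h glands lay below all others. From -6 to +6 h msl-2 fell in gland by 1.01 on the log2 scale (log2 difference -1.01 ± 0.22 SE, limma adjusted p = 0.00167). This call stood at the fold limit and was lost in 7 of 20 fits that left out a library, among them that without WT gland -6 h replicate 2 (-0.60, adjusted p = 0.0782) and that without WT gland +6 h replicate 1 (-0.70, 0.0527), and without scaling it was -0.20 (0.624). In EcRi tissue msl-2 had 16.5 to 25.7 scaled RPM in wing and 14.3 to 17.7 in gland, with no difference from WT larger than 0.24 in size on the log2 scale. The genes most like it were Rassf (r = 0.901), CG4004 (0.895) and pps (0.872).

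msl-1 (FBgn0005617, 2L:18683720-18688800, minus strand), the scaffold gene, had 68.9 to 88.0 scaled RPM in wings before pupariation and 47.2 and 56.3 in WT wing at +6 h. Glands had 39.1 to 56.0 before pupariation and 31.6 and 34.2 at +6 h. No difference of msl-1 reached 2-fold. In 7 comparisons between WT wing and gland or between WT times it passed the adjusted p alone, with sizes of 0.50 to 0.64 on the log2 scale. Its largest differences were those of EcRi wing from EcRi gland, 0.96 ± 0.18 (SE) at -30 h (limma adjusted p = 0.000481) and 0.69 ± 0.18 at -6 h (0.00585).

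mle (FBgn0002774, 2R:5974857-5980778, minus strand), the helicase gene, had 43.9 to 67.1 scaled RPM in wings and 32.7 to 45.1 in glands, apart from WT gland -30 h replicate 2. That library had 10.5 scaled RPM, against 38.6 in replicate 1. The call of mle as higher in WT wing than in WT gland at -30 h (1.38 ± 0.39 SE, limma adjusted p = 0.0122) fell to 0.48 (0.104) without it.

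msl-3 (FBgn0002775, 3L:7123213-7125533, minus strand), the chromodomain gene, had 15.8 to 26.5 scaled RPM in wings and 11.9 to 22.4 in glands and was called in no comparison. It shares 85 bases with form3, which had at most 118 scaled RPM, and reads in the overlap cannot be assigned to either gene.

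**Figure D4:**
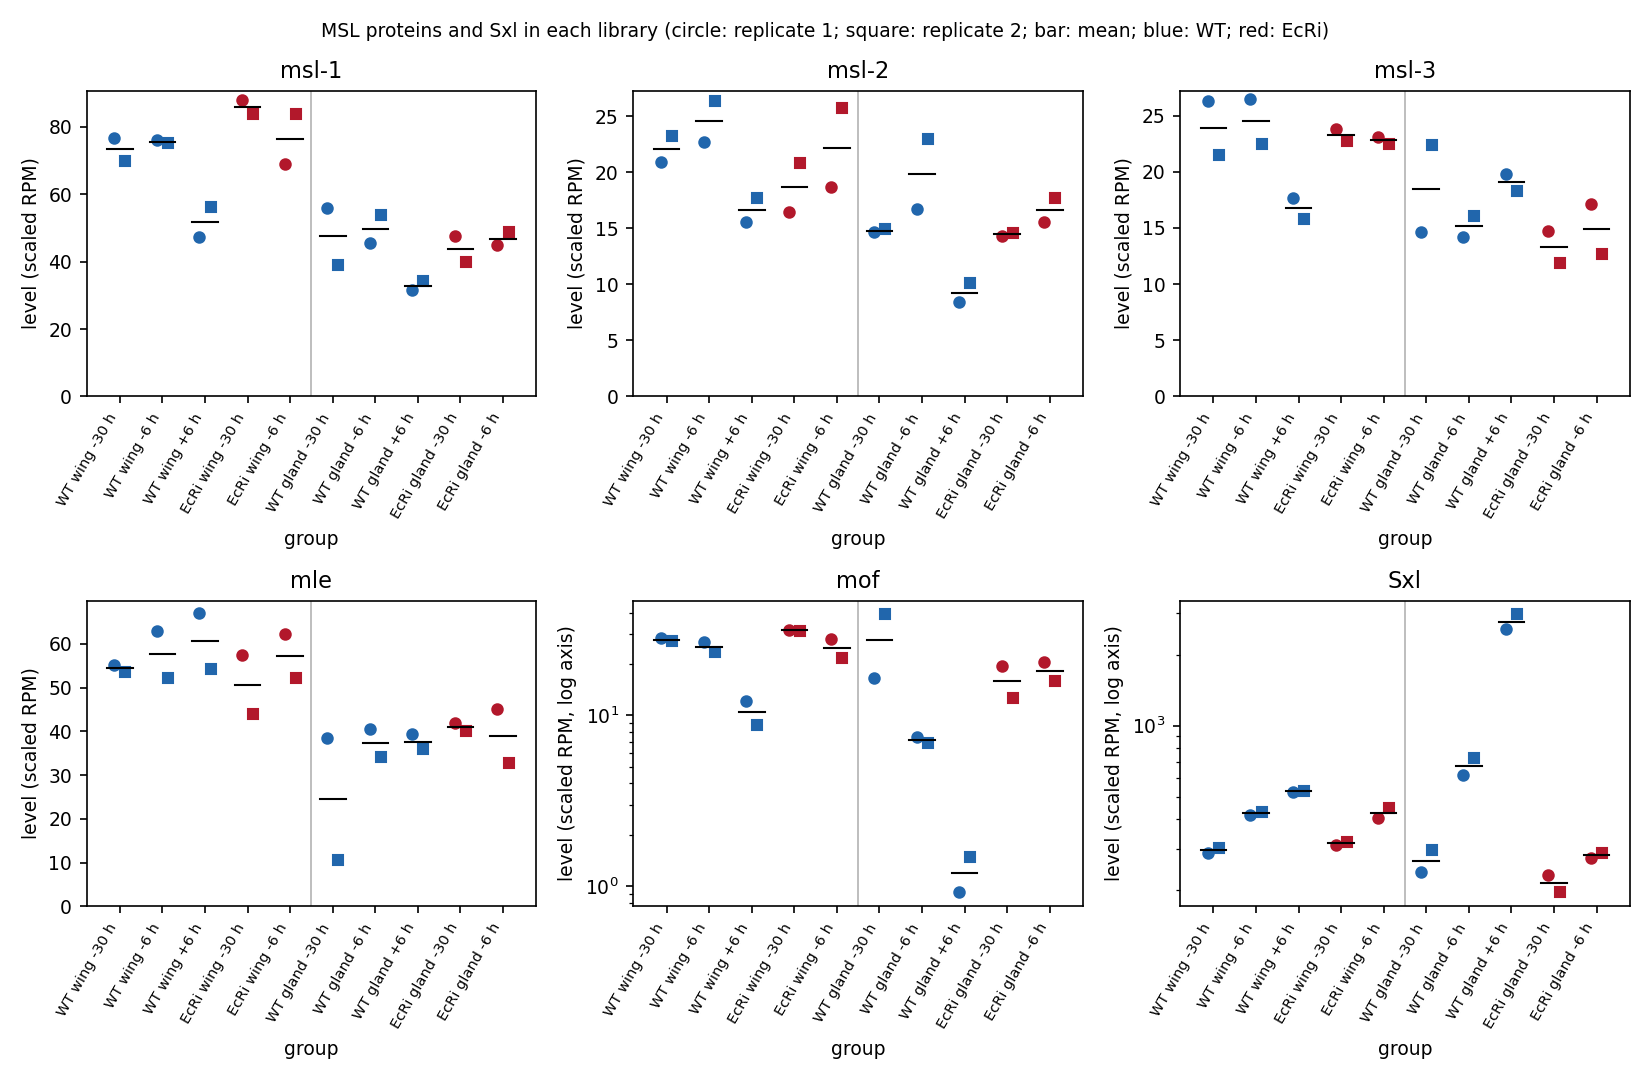
Level of the MSL protein genes and Sxl in each library, in scaled RPM, with log axes for mof and Sxl and a bar at the mean of each group. In WT gland Sxl runs from 239 and 296 at -30 h to 2555 and 2959 at +6 h, and mof from 16.6 and 39.0 to 0.920 and 1.48.

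Per length of gene span, as the authors computed it, the median over libraries was 25.8 RPKM for Sxl, 12.3 for msl-1, 9.52 for mle, 8.93 for msl-3, 6.35 for mof and 5.01 for msl-2. roX1 and roX2 had medians of 0.271 and 0.231 RPKM, and highest values of 10.8 and 7.70. The span of Sxl is 23504 bases, of which 9192 are exonic, so its level per length of mRNA is understated by this unit.

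The count of calls differed by comparison, as did the share of all genes called. In WT wing 0 of the 8 genes were called from -30 to -6 h by limma (1 at an unadjusted p under 0.05), where 5.30% of all genes were called. From -6 to +6 h 1 of 8 was called (16.7% of all genes), and from -30 to +6 h 1 of 8 (24.6%), mof in both. In WT gland 2 of 8 were called from -30 to -6 h (34.7%), Sxl upward and mof downward. From -6 to +6 h there were 4 of 8 (30.0%), with roX2 and Sxl upward and mof and msl-2 downward, and from -30 to +6 h 3 of 8 (45.6%), the same without msl-2. Between WT wing and WT gland 2 of 8 were called at -30 h (30.9%), roX1 and mle, 1 of 8 at -6 h (44.4%), mof, and 3 of 8 at +6 h (47.3%), mof higher and roX2 and Sxl lower in wing. Read against these shares, the counts are no result about the 8 genes as a set.

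Counts of calls between EcRi and WT, and within EcRi tissue, are again set beside the share of all genes called. Read this way, they are no result about the 8 genes as a set. None of the 8 was called between EcRi and WT in wing at -30 h (2.21% of all genes called) or at -6 h (1.78%), or in gland at -30 h (13.6%), with 0, 0 and 2 at an unadjusted p under 0.05. In gland at -6 h 2 of 8 were called (27.0%), mof higher and Sxl lower in EcRi. Averaged over the 4 matched tissue times 0 were called (5.07%, with 1 at an unadjusted p under 0.05), with Sxl at -0.37 ± 0.07 SE (limma adjusted p = 0.00104) short of 2-fold. Within EcRi tissue 0 were called from -30 to -6 h in wing (3.10%) or gland (4.40%), with 1 each at an unadjusted p under 0.05. Between EcRi wing and gland 0 were called at -30 h (33.2%) or -6 h (32.2%), with 4 and 3 at an unadjusted p under 0.05. The median log2 difference of the 8 genes between EcRi and WT was -0.07, -0.06, -0.07 and -0.15 in wing at -30 and -6 h and gland at -30 and -6 h, against -0.022, 0, 0.16 and 0.155 over all genes. In tests of a difference between differences, 1 of the 8 was called for the EcRi minus the WT change in gland from -30 to -6 h (26.6% of all genes called), 1 for the EcRi effect in wing minus gland at -6 h (21.7%), and 1 each for the WT wing minus gland change from -30 to -6 h (28.6%) and from -6 to +6 h (27.0%). None was called for the EcRi minus the WT change in wing or for the EcRi effect in wing minus gland at -30 h. For these the share of all genes is not given here.

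**Figure D5:**
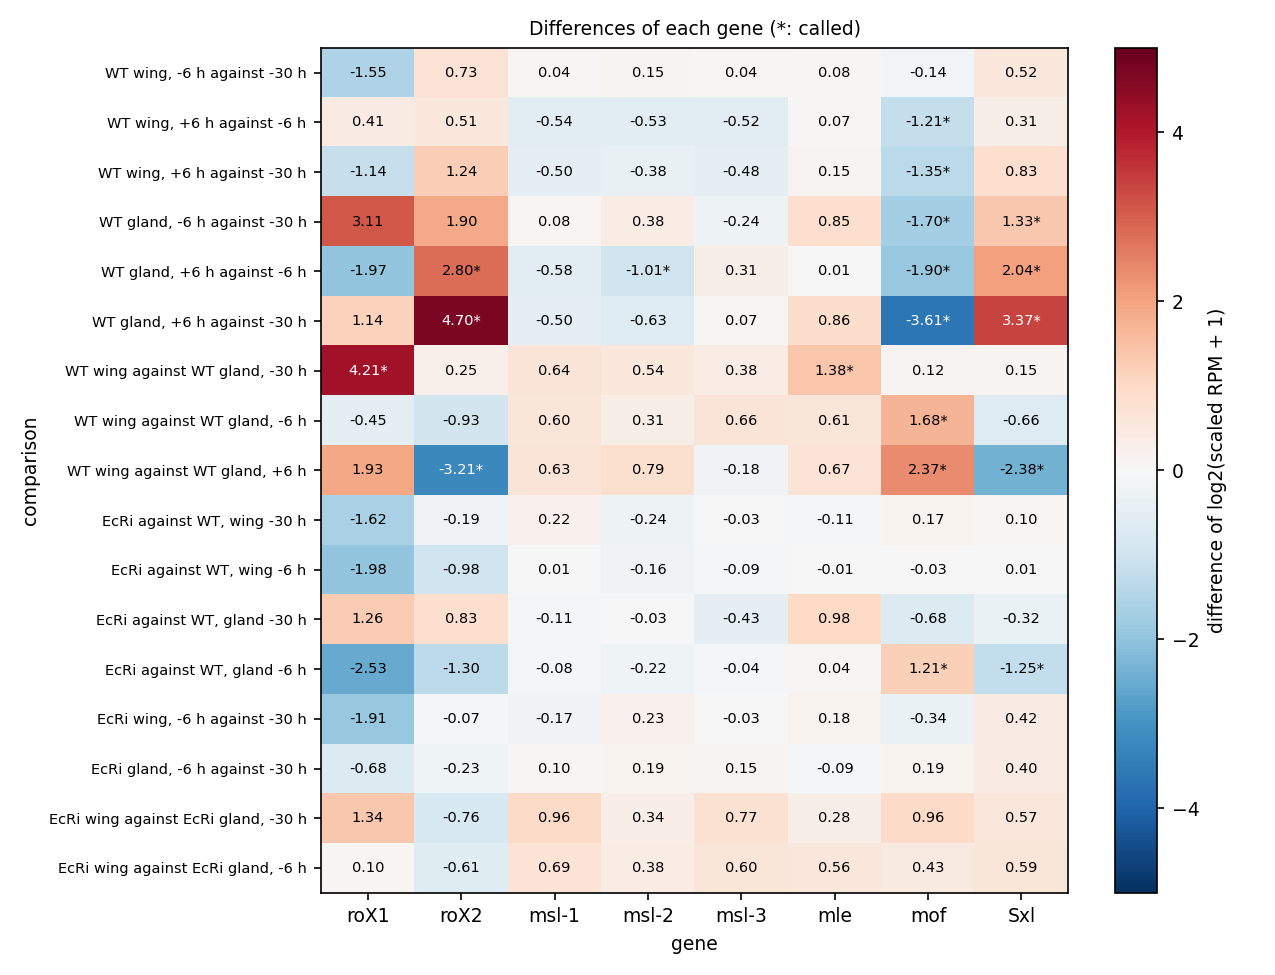
Difference of log2(scaled RPM + 1) for each of the 8 genes (columns) in 17 comparisons (rows), with an asterisk on those called. In WT gland from -30 to +6 h roX2 and Sxl stand at 4.70 and 3.37 and mof at -3.61, while no difference between EcRi and WT wing is called.

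Of 7 genes that help the MSL complex or control msl-2, all tested, the chromatin kinase gene JIL-1 and the RNA-binding protein gene how, known to act on msl-2 RNA, rose in WT wing from -6 to +6 h, by 1.76 ± 0.27 (SE, limma adjusted p = 0.000196) and 1.36 ± 0.19 (8.17e-05), the latter 0.85 without scaling. The share of all genes called in each comparison is given above. Top2, a topoisomerase gene, fell there by 1.62 (log2 difference -1.62 ± 0.34, 0.00242) and was the only gene of the list called lower. In WT gland from -30 to +6 h Top2 fell by 3.87 (-3.87 ± 0.34, 2.29e-07), the H3K36 methyltransferase gene Set2 by 1.61 (-1.61 ± 0.23, 2.9e-05), and how was higher by 1.37 ± 0.19 (2.06e-05), which without scaling was -0.15. The median of the list was 0.24 there against 0.079 over all genes. In EcRi gland at -6 h Top2 was higher by 1.40 ± 0.34 (adjusted p = 0.00436) and JIL-1 lower (-1.23 ± 0.27, 0.00209), the latter turning to 0.90 without scaling. At -30 h JIL-1 (-1.23 ± 0.27, 0.00598) and Set2 (-1.02 ± 0.23, 0.00725) were lower. In EcRi wing 0 of 7 were called at either time.

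The NSL complex, which shares MOF, had all 8 listed genes tested. In WT gland from -30 to +6 h wds (-1.71 ± 0.57 SE, limma adjusted p = 0.0188) and pzg (-1.07 ± 0.15, 2.7e-05) were called lower and none higher. The median of the list was -0.24. In WT wing pzg alone was called lower from -6 to +6 h (-1.23 ± 0.15, 2.63e-05), with a list median of -0.47 against 0 over all genes. In EcRi gland at -6 h wds was higher (1.70 ± 0.57, 0.0294).

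Of the genes for Sxl splicing and for the RNA methylation it depends on, 8 of 9 listed were in the matrix and tested. In WT gland from -6 to +6 h 4 were called lower and none higher, with a list median of -1.41 against -0.078 over all genes. Of all genes, 30.0% were called in either direction. The 4 were the methyltransferase complex genes nito (-2.52 ± 0.23 SE, limma adjusted p = 8.37e-07), vir (-1.74 ± 0.21, 1.1e-05) and Mettl14 (-1.53 ± 0.44, 0.0114), and the reader gene Ythdc1 (-1.67 ± 0.16, 1.47e-06). Without scaling vir was -0.84, Ythdc1 -0.82 and Mettl14 -0.51, all short of 2-fold. In WT wing 0 of 8 were called in any interval, and in EcRi gland at -6 h fl(2)d was lower (-1.07 ± 0.14, 2.94e-05), turning to 1.05 without scaling.

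Of 8 genes whose dose or product sets Sxl in the embryo, 6 were tested. In WT gland from -30 to +6 h the helix-loop-helix genes emc and sc rose, by 2.45 ± 0.15 (SE, limma adjusted p = 7.98e-09) and 1.39 ± 0.34 (0.00277), and none was called lower. Without scaling they were 0.93 and 0.58, short of 2-fold. In the same comparison 3 of 6 wing markers and 4 of 4 myoblast markers were called higher, and without scaling all 7 of these were short of 2-fold and the myoblast marker Mef2 turned from 1.11 to -0.41. Summed wing markers were 220 and 131 scaled RPM in WT gland at -30 h and 173 and 180 at +6 h, and summed myoblast markers 82.9 and 130 and then 218 and 241. The part of such cells in the rise of emc, sc and dsx in gland was not tested. In each EcRi comparison with WT 0 of 6 were called. Of 6 genes downstream of Sxl, all tested, fru fell in WT wing from -30 to +6 h by 6.57 (-6.57 ± 0.23, 1.7e-10) and in WT gland by 5.07 (-5.07 ± 0.23, 3.83e-10). It was higher in EcRi than in WT gland at -6 h by 4.29 ± 0.23 (7.66e-09), with means of 404 ± 1.48 against 19.8 ± 0.346 scaled RPM (SD, n = 2). dsx, the gene of the sex-specific transcription factors, rose in WT wing (1.53 ± 0.47, 0.0208) and in WT gland (1.68 ± 0.47, 0.00753) from -30 to +6 h, but was 0.88 and 0.55 without scaling, short of 2-fold in both. tra, the splicing factor gene that Sxl controls, had 12.8 to 19.2 scaled RPM as group means in wing and 4.41 to 9.85 in gland.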

How the data were processed

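The authors deposited a matrix of RPKM values, reads per length of gene span and library size, and tables of log2 fold changes with adjusted p-values. The build dm6 and the tools STAR 2.7.3a and SAMtools 1.9 are listed in the submitters' processing notes. Strand use is not given in the sources used here. Within a library the RPKM values are multiples of the value of 1 read, so reads were recovered from these steps. Of 65403 low values, those of 20 reads at most, all differed from a whole number by under 0.1. A gene's length was accepted only under that rule, so this count is no check of the recovery. Of 10287 genes matched by symbol with a low value, 99.9% met the rule with the annotated span. TMM factors were then applied to RPM, reads relative to library size (trimming 30% of log ratios and 5% of levels).

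Genes were tested if 2 libraries reached 0.558 scaled RPM, worth 10 reads at median depth, and the total was 15 reads or more. limma 3.58.1 in R 4.3.3 was fitted to log2(scaled RPM + 1) with one mean per group and moderated variances (trend, robust; 10 residual and 3.42 median prior degrees of freedom), and p-values were adjusted by Benjamini-Hochberg over all 10176 genes. A fold on this scale understates changes of low genes. Tables were made with Python 3.11.15 and figures with matplotlib 3.10.9. The limit of a count of 0 is 3 reads, 0.133 to 0.201 RPM by library. The 8 genes and the lists were chosen with earlier results of these data known. Genes named are the 8, up to 4 called genes of each list and comparison by size, and the 3 genes most like roX1, roX2, msl-2 and Sxl. fru, tra and the small RNAs with the largest replicate gaps were described after their values were seen. Alternatives were other scalings, pseudocounts, filters, fitted libraries, a replicate block, voom, no fold minimum and leaving out libraries. The script was tested on simulated data.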

Additional observations from a re-analysis of the deposited data

Results flagged for a closer look

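Effects that differed between tissues or genotypes by a limma test of the difference itself concerned mof and Sxl. For mof, the EcRi change minus the WT change in gland from -30 to -6 h was 1.89 on the log2 scale (limma adjusted p = 0.00735): mof fell in WT gland (-1.70) and was 0.19 in EcRi gland. With only the compared libraries this difference was 1.76 (adjusted p = 0.0944) and with voom 1.97 (0.156). The WT wing change of mof minus the WT gland change over the same interval was 1.56 (adjusted p = 0.0205), and this call was lost in 5 of 20 fits that left out a library. Without WT gland -30 h replicate 2 it was 0.97 (0.0392), short of 2-fold. For Sxl, the difference between EcRi and WT in wing minus that in gland at -6 h was 1.25 (adjusted p = 0.000218), which without scaling was -0.95. The WT wing change of Sxl minus the WT gland change from -6 to +6 h was -1.72 (adjusted p = 7.63e-06), with the same direction under every scaling tried.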

How the results depend on the processing

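Calls among the 8 genes numbered 11 of 48 over WT times, 6 of 24 between WT wing and gland, 2 of 32 between EcRi and WT, 0 of 16 over EcRi times and 0 of 16 between EcRi wing and gland. Without scaling beyond library size they were 22, 16, 8, an unchanged 0 and 12, and without a fold minimum 18, 12, 2, 0 and 7. Between EcRi and WT, 1 call was left at a pseudocount of 4 and 1 with voom. Over EcRi times 1 call was made with only the compared libraries, and 1 without 4 libraries doubted after the data were seen (WT gland -30 h replicate 2, WT wing -6 h replicate 2, WT wing +6 h replicate 1 and WT gland -6 h replicate 2). Between EcRi wing and gland there were 2 with median-of-ratios scaling, 3 with only the compared libraries and 3 without the 4 libraries. Leaving out each library in turn gave 10 to 13, 4 to 7, 1 to 4, 0 to 0 and 0 to 3 calls. The 4 came without WT gland -30 h replicate 1, and the 1 without WT gland -6 h replicate 2 or EcRi gland -6 h replicate 1. Between EcRi wing and gland the 3 came without EcRi gland -30 h replicate 1, and 1 or 2 without EcRi gland -30 h replicate 2, WT gland -30 h replicate 1 or any WT gland library at -6 or +6 h.

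For roX1 in wing at -30 h, the EcRi difference was -1.66 (limma adjusted p = 0.000476) with only the compared libraries and -1.59 without the 4 libraries. The 4 were picked for standing apart in roX1 or in genes detected. Leaving them out removes part of the replicate spread of roX1 itself, so that fit is no test of roX1. In wing at -6 h it changed sign, uncalled, from -1.98 to 0.16 without WT wing -6 h replicate 2 and to 0.14 without the 4 libraries, and the roX2 mean went from -0.41 to 0.01 without the 4. The roX1 mean over 4 matched tissue times ranged from -1.75 (adjusted p = 0.0383, without WT wing -6 h replicate 1) to -0.68 when each library was left out. The replicate block changed no count of calls (11, 6, 2, 0 and 0). The main fit did not pair samples by replicate number, though most pairs of groups had replicate differences that correlated over 0.1. The correlation was -0.04 to 0.427 over 45 pairs of groups, with a median of 0.154, and 30 were over 0.1. Whether the replicate numbers mark shared batches was not tested.

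Changes of sign in which the value passed the threshold before or after came without scaling, where the median of all genes moved to -1.128 in WT gland from -30 to -6 h, to -0.644 from -30 to +6 h, to 1.57 for EcRi against WT gland at -6 h and to 2.133 and 1.392 for WT wing against gland at -6 and +6 h. From -30 to -6 h in WT gland msl-1 was then -2.19, msl-2 -1.75, mle -1.38 and Sxl -1.03, and msl-3 was -1.35 from -30 to +6 h. For WT wing against gland Sxl was 2.31 at -6 h and msl-3 1.34 at +6 h. For EcRi against WT gland at -6 h msl-1 was 1.99, msl-2 1.72, msl-3 1.85 and Sxl 0.91, and the EcRi change minus the WT change was 2.43 for msl-2, 1.80 for mle and 1.96 for Sxl. The wing minus gland difference of EcRi at -6 h was -2.03 for msl-1, -1.92 for msl-2 and -0.95 for Sxl. The WT wing change minus the gland change was 2.08, 1.75 and 1.39 for msl-1, msl-2 and Sxl from -30 to -6 h, and -1.28 for msl-1 from -6 to +6 h. The TMM factors were 0.252 and 0.198 in WT gland at -6 h and 0.384 and 0.409 at +6 h, and the cause was not tested. Median-of-ratios scaling and TMM without glue and 71E genes gave no such change. With 2 libraries a group, roX values near 1 read are set by depth.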
